A study of Mus musculus with 22 samples.

Results

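The data described here are RNA-seq counts of alveolar macrophages sorted from lungs of mice with an inducible surfactant protein C mutation, taken 14 d and 3 d after induction of lung injury. The genes described were protein-coding, lay on chromosomes 1 to 19 and had a mean counts-per-million value (CPM) of 10 or more in the 3 d or the 14 d libraries. They numbered 9083 of the 20944 genes tested and of the 31134 genes in the count table. Of these, 7795 reached 10 CPM at both times, 616 at 3 d alone and 672 at 14 d alone. By the higher of the 2 means, Dph2 at 10.02 CPM lay just inside this limit and Itga7 at 9.999 CPM just outside. The question asked was which early changes persisted, reverted or grew between the 3 d and the 14 d libraries.

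All animals carried the SP-CI73T allele on a C57BL/6 background, an isoleucine to threonine change in the surfactant protein C gene, which alveolar type 2 epithelial cells express and macrophages do not. The 3 d group (3 libraries) and the 14 d group (3 libraries) came from mice given a single tamoxifen gavage, which activates a Flp recombinase under the Rosa26 locus, excises a neomycin cassette and raises the mutant protein. The control group (4 libraries) is labelled untreated SP-CI73T mutant, and the study's methods describe its controls as adult mutants given oil, or tamoxifen without the recombinase. Cells were sorted as SigF+CD11b- from lavaged, perfused and collagenase-digested lung, and the labels do not say whether each library came from a separate mouse, so the p-values below measure the spread between libraries.

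Alveolar macrophages live in the airspace, where they clear surfactant and inhaled particles, and their identity depends on GM-CSF and TGF-beta signals acting through the nuclear receptor PPAR gamma. They carry Siglec-F and CD11c and, at rest, little CD11b. After injury, monocytes enter the airspace and can become macrophages that carry CD11b, complement C1q and apolipoprotein E, while eosinophils, basophils and neutrophils may arrive in the same tissue.

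The 14 d libraries stood apart from the rest in depth, in the number of genes detected and in reads of genes that macrophages hardly use, and the part of the last in the calls at 14 d was not tested. They held 4610720 to 6838893 counts, against 10692871 to 15410838 at 3 d and 14437070 to 17074863 in controls. After every library was thinned to 4610720 counts, 27699 to 30287 genes had a count at 14 d and 19401 to 22334 at 3 d. Olfactory and vomeronasal receptor genes took 662 to 1229 CPM (unscaled library size) at 14 d, 23.1 to 106 at 3 d and 16.7 to 141 in controls. Among the 176 receptor genes tested, 166 were called higher at 14 d and 0 lower, but their median level at 14 d was 1.48 CPM and only 2 reached 10 CPM. Reads of Y-linked genes (Kdm5d, Eif2s3y, Uty and Ddx3y, 4 in all) came to 433 to 966 per library at 14 d and to 2 to 3 at 3 d, whereas Xist had 8 to 32 counts at 14 d and 1747 to 2597 at 3 d. The 14 d libraries thus carried RNA of male animals and the 3 d and control libraries that of female animals, and time after injury and sex cannot be told apart in any comparison with the 14 d group. Each of these measures separated 14 d from 3 d completely, with an exact permutation p = 0.1, which is the smallest that 3 against 3 allows (two-sided, adjusted p = 0.125 over 20 measures).

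**Figure D1:**
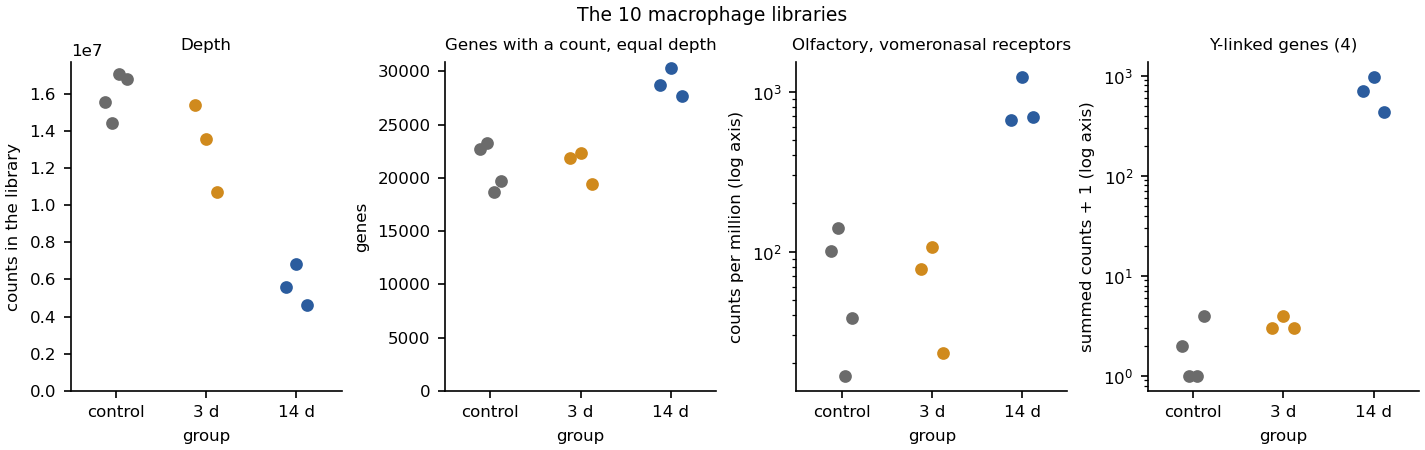
Depth, genes with a count after thinning to equal depth, the share of counts from olfactory and vomeronasal receptor genes (log axis) and summed counts of 4 Y-linked genes (log axis) in each of the 10 macrophage libraries. The 3 libraries at 14 d lie apart from the 3 d and control libraries in every panel.

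A gene was called when its adjusted p (edgeR, Benjamini-Hochberg over all genes tested) was under 0.05 and its change above 1.5-fold. Between 14 d and 3 d, 56.4% of all genes tested were called, 36.3% higher and 20% lower. Among the 9083 genes described, 967 were higher and 3351 lower, with a median log2 fold change of -0.42, but this split depended on how the libraries were scaled. With trimmed mean (TMM) factors, as used throughout, 22.4% of the calls were higher; the share was 30.8% with median-ratio factors, 48.7% with upper quartile factors, 63.9% with library size alone and 71.1% with TMM factors that used abundant genes alone (mean of 30 CPM or more). The median of all genes moved from 0.16 to 0.66 on the log2 scale over these 5 scalings, and that of the genes described from -0.42 to 0.07. All 967 genes called higher were higher with all 5 scalings, whereas 798 of the 3351 called lower were lower with all 5. TMM factors gave the lowest median of the 5, so the other scalings moved fold changes upward and could hardly remove a higher call. That a higher call held with all 5 scalings is therefore no check on it, and only lower calls were put to one. Lower calls are therefore described by whether they held with all 5 scalings, and medians of gene groups are given relative to the median of the genes described, a difference that moved by at most 0.03 for any group.

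Large changes were mostly increases. Of the genes called with all 5 scalings, 379 were more than 4-fold higher and 69 more than 4-fold lower at 14 d, and 199 were more than 8-fold higher against 12 lower. The libraries of the 2 times did not overlap for 61.7% of the genes described and for 65.5% of all genes tested. Genes that reached 10 CPM at 14 d alone supplied 576 of the 967 higher calls, and these had passed the limit on level through their 14 d values.

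**Figure D2:**
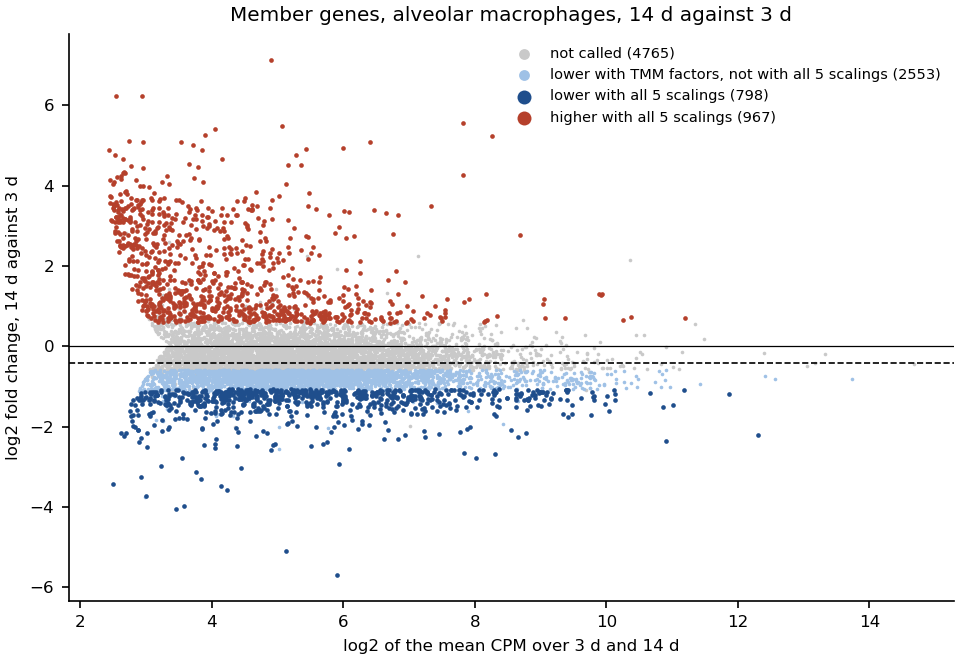
Log2 fold change at 14 d against 3 d (y axis) by log2 mean CPM over both times (x axis) for the 9083 genes, coloured by call. The dashed line marks their median of -0.42, and the pale blue points are the genes whose lower call was lost with at least 1 of the 5 scalings.

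Changes were few at 3 d. Against control, 131 of the genes described were higher and 39 lower (1.87%), against 1.27% of all genes tested called, 1.05% higher and 0.224% lower. By 14 d, 62.3% of all genes tested were called against control, 39.4% higher and 22.9% lower, and of the genes described 1127 were higher and 3708 lower (53.2%). Libraries of 14 d and control did not overlap for 70.7% of the genes described and 70.8% of all genes tested, and those of 3 d and control for 18.6% and 14.0%. Of the 4318 genes called at 14 d against 3 d, 4218 (97.7%) had not been called at 3 d against control. Of all 9083 genes described, 8913 had not been called there either, so this share was close to that of the whole. The number of early calls rested on single libraries: it was 73 higher and 4 lower over all genes without 3 d replicate 1, and 802 higher and 674 lower without 3 d replicate 2, compared with 220 and 47 with all libraries. The 170 early genes were followed to 14 d. Of these, 64 moved further in the same direction (grew), 63 were still called against control at 14 d without a call between 14 d and 3 d (persisted), 36 moved back (reverted) and 7 met none of these. Among genes with 10 CPM or more at both times, 30 grew, 60 persisted and 16 reverted. The other genes in these classes had passed the limit on level through 1 time alone. The same 3 d libraries enter the early comparison and that of 14 d with 3 d, and the control libraries enter both comparisons with control, so the classes do not rest on independent measurements. With all 5 scalings, 49 of the 64, 33 of the 63 and 27 of the 36 genes stayed in their class. In each of the 10 fits that left out 1 library, 42 of the 170 early calls were kept.

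**Figure D3:**
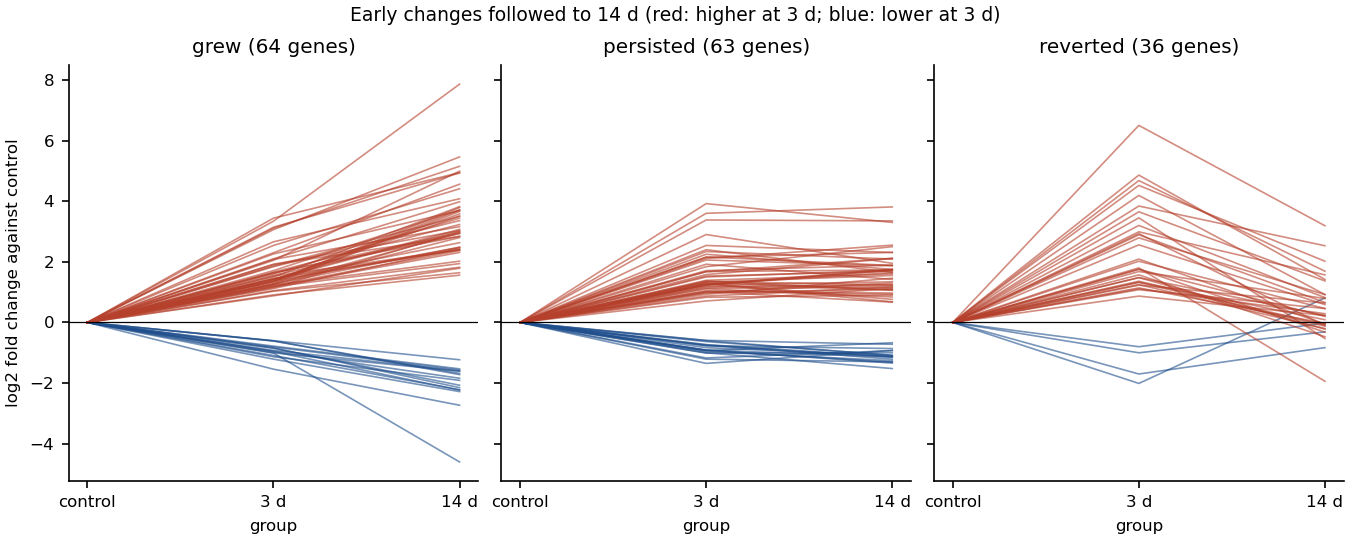
Log2 fold change against control at 3 d and 14 d for the early genes, 1 line per gene, in the classes grew (64 genes), persisted (63) and reverted (36). Of the 36 that reverted, 32 had been higher at 3 d.

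Genes that moved further after 3 d included a macrophage growth factor, a complement receptor and keratins. Of the 64 genes, 48 were higher at 3 d, with a median log2 fold change of 1.48 at 3 d and 3.05 at 14 d against control. C3ar1, the receptor of the complement fragment C3a, was 0.459 to 2.28 CPM in controls, 10.7, 5.51 and 9.91 CPM at 3 d and 41.1, 21.0 and 45.3 CPM at 14 d. No library of 1 group overlapped with another. Its log2 fold change at 14 d against 3 d was 2.03 ± 0.43 (SE), adjusted p = 0.00171. The early call missed the threshold without 3 d replicate 1 (adjusted p = 0.0507) or 3 d replicate 3 (adjusted p = 0.0545). Csf1, the growth factor on which macrophages depend, was 2.06 to 5.63 CPM in controls, 44.4, 18.7 and 52.3 CPM at 3 d and 139, 132 and 52.2 CPM at 14 d. Its lowest 14 d library lay at the level of its highest 3 d library, and the call between 14 d and 3 d (log2 fold change 1.49 ± 0.48, adjusted p = 0.0219) was lost in 5 of the 10 fits with 1 library left out, those without a 3 d library or without 14 d replicate 1 or 2 (adjusted p = 0.0539 to 0.109). The early call of Csf1 was lost without 3 d replicate 1 or 3 (adjusted p = 0.0948 and 0.106). It was also lost without control replicate 1 or 3 (adjusted p = 0.051 and 0.0524). Krt8, an intermediate filament keratin, was 0.548 to 0.852 CPM in controls, 8.96, 1.86 and 8.13 CPM at 3 d and 21.5, 14.7 and 29.8 CPM at 14 d. Its partner keratin Krt18 was 0.228 to 0.983 CPM in controls, 4.37, 2.17 and 4.38 CPM at 3 d and 11.7, 6.30 and 22.1 CPM at 14 d. Both keratins were called in all 3 comparisons, with the early call of Krt18 kept in 6 of 10 fits with 1 library left out. Retnlg, a resistin-like gene best known from neutrophils, was 0.152 to 0.655 CPM in controls, 4.66, 3.10 and 2.29 CPM at 3 d and 78.2, 30.1 and 128 CPM at 14 d. Its early call (adjusted p = 0.0457) held in 2 of the 10 fits with 1 library left out and not with all 5 scalings.

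Other genes that grew, picked after their values were seen, include receptors and surface proteases. Il1rl1, the IL-33 receptor, was 0.456 to 1.25 CPM in controls, 6.09, 2.33 and 6.78 CPM at 3 d and 15.8, 9.70 and 15.0 CPM at 14 d. Adam8, a protease of activated leukocytes, went from 2.13 to 4.33 CPM in controls to 18.1, 11.7 and 21.5 CPM at 3 d and 86.9, 41.8 and 118 CPM at 14 d. Pglyrp1, a peptidoglycan-binding granule protein, went from 1.13 to 3.01 CPM in controls to 12.1, 7.06 and 6.78 CPM at 3 d and 86.7, 41.5 and 73.4 CPM at 14 d. In all 3 genes every 14 d library was above every 3 d library, which in turn was above every control library. Clu, an extracellular chaperone, was 2.88 to 4.92 CPM in controls, 9.10, 7.06 and 10.4 CPM at 3 d and 51.1, 28.1 and 59.0 CPM at 14 d. The aryl hydrocarbon receptor gene Ahr, with 1.82 to 2.49 CPM in controls, reached 6.09, 4.66 and 8.76 CPM at 3 d and 19.3, 11.2 and 20.1 CPM at 14 d. All 5 genes were higher at each step with all 5 scalings, although the early call of Clu held in 5 of 10 fits with 1 library left out.

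Among the 16 early decreases that grew, 3 kept this class with all 5 scalings. Gal, which encodes the neuropeptide galanin, fell in steps from 64.2, 65.2, 71.8 and 77.1 CPM in controls to 31.2, 50.1 and 22.4 CPM at 3 d and 2.88, 3.40 and 2.20 CPM at 14 d. The 3 groups did not overlap, and the log2 fold change at 14 d against 3 d was -3.59 ± 0.29, adjusted p = 2.13e-06. Pla2g15, the lysosomal phospholipase A2 that degrades surfactant lipids in these cells, was 733 to 845 CPM in controls, 435, 522 and 351 CPM at 3 d and 168, 203 and 156 CPM at 14 d, and no 14 d library reached a 3 d library. The early call of Gal was lost in 5 of 10 fits with 1 library left out (adjusted p up to 0.138, without 3 d replicate 1).

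Persisting genes included signalling and immune genes. The 45 higher ones had a median log2 fold change against control of 1.35 at 3 d and 1.64 at 14 d. Ifitm1, an interferon-induced membrane protein also found in basophils, was 0.996 to 2.53 CPM in controls, 31.0, 17.4 and 30.6 CPM at 3 d and 21.0, 22.3 and 7.61 CPM at 14 d. Esr1, the estrogen receptor alpha gene, was 0.398 to 2.66 CPM in controls, 20.9, 12 and 12 CPM at 3 d and 14.4, 17.4 and 12.2 CPM at 14 d. The 3 d and 14 d ranges of Esr1 overlapped almost wholly (log2 fold change -0.03 ± 0.46, adjusted p = 0.963), and both lay above the controls. Cacnb3, a calcium channel subunit, was 1.82 to 3.29 CPM in controls, 20.4, 11.1 and 19.5 CPM at 3 d and 12, 18.3 and 13.0 CPM at 14 d. Hdc, the enzyme that makes histamine, was 1.77 to 2.36 CPM in controls, 30.4, 16.2 and 28.6 CPM at 3 d and 31.1, 39.7 and 15.7 CPM at 14 d. The early call of each of these 4 genes was kept in all 10 fits with 1 library left out, but the class of Hdc changed with the scaling. Without 3 d replicate 2, Ifitm1 and Cacnb3 were called lower at 14 d against 3 d (log2 fold change -1.08 and -0.69). In that fit both therefore reverted. Ccl17, a chemokine that attracts Th2 cells, was 8.49 to 18 CPM in controls, 72.9, 43.0 and 154 CPM at 3 d and 48.0, 63.9 and 26.5 CPM at 14 d. Its early call held in 4 of the 10 fits (adjusted p 0.0508 to 0.125 where lost). Ccl17, too, was called lower at 14 d against 3 d without 3 d replicate 2 (log2 fold change -1.51). Scd1, a fatty acid desaturase, and Tnfaip3, a brake on NF-kappa B, persisted at 60.9 to 95.4 and 122 to 189 CPM at 3 d and at 69.6 to 92.8 and 108 to 166 CPM at 14 d.

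Lower genes that persisted numbered 18, with a median log2 fold change against control of -0.91 at 3 d and -1.11 at 14 d. Pld4, a lysosomal exonuclease of single-stranded nucleic acids, was 322 to 373 CPM in controls, 101, 243 and 116 CPM at 3 d and 137, 167 and 127 CPM at 14 d. The sialic acid receptor gene Siglece was 81.7 to 106 CPM in controls, 32.9, 54.6 and 21.5 CPM at 3 d and 45.2, 54.2 and 48.4 CPM at 14 d. C3, the central complement component, was 329 to 368 CPM in controls, 147, 263 and 189 CPM at 3 d and 197, 204 and 162 CPM at 14 d. For all 3, 3 d replicate 2 lay nearest to the controls, as it did for 140 of the 170 early genes, and Siglece and C3 did not keep the class with all 5 scalings. The early call of Pld4 was kept in 3 of 10 fits with 1 library left out (adjusted p 0.0518 to 0.116 where lost).

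Genes that reverted included receptor and protease genes of basophils and mast cells. A list of 12 such genes, drawn up after values had been seen, is given as a description without a test. At 3 d against control 8 of the 12 were called higher and 0 lower, and at 14 d against 3 d 6 were lower and 2 higher, while 8 were still called higher at 14 d against control, with a median log2 fold change of 2.14 after 3.75 at 3 d. Fcer1a, the alpha chain of the IgE receptor, was 0.753, 0.380, 0.197 and 0.0664 CPM in the controls, 14.2, 4.89 and 12 CPM at 3 d and 0.720, 1.51 and 0.507 CPM at 14 d. Its partner Ms4a2, the beta chain, was 0.398 to 0.822 CPM in controls, 22.2, 9.16 and 18.6 CPM at 3 d and 1.15, 3.02 and 2.03 CPM at 14 d. The 3 d libraries stood above all others for both chains, and both fell at 14 d with all 5 scalings (adjusted p = 0.000296 and 6.53e-05). Cd200r3, an activating receptor of basophils and mast cells, was 0.465 to 1.23 CPM in controls, 19.4, 8.38 and 13.5 CPM at 3 d and 1.30, 2.02 and 0.845 CPM at 14 d. Gata2, a transcription factor of this lineage, was 1.93 to 2.49 CPM in controls, 40.6, 19.2 and 33.9 CPM at 3 d and 13.3, 10.1 and 14.4 CPM at 14 d, so it reverted part of the way and stayed 2.53 ± 0.26 above control on the log2 scale (adjusted p = 2.68e-06). The mast cell protease gene Cpa3 was 0.608 to 1.85 CPM in controls, 14.4, 5.43 and 18.2 CPM at 3 d and 2.16, 4.41 and 1.01 CPM at 14 d. Cyp11a1, a steroid-synthesis enzyme also found in activated mast cells and T cells, was 0.266 to 0.753 CPM in controls, 15.1, 9.78 and 16.2 CPM at 3 d and 3.89, 2.39 and 0.845 CPM at 14 d. Not every gene of the list followed: Hdc persisted, and Kit, the stem cell factor receptor, rose from 3.87, 6.83 and 5.21 CPM at 3 d to 16.6, 11.8 and 10.7 CPM at 14 d, a call kept in 7 of 10 fits with 1 library left out. Over the list the summed level was 8.89 to 17.8 CPM in controls, 86.0 to 177 CPM at 3 d and 54.3 to 88.8 CPM at 14 d, so the 2 times overlapped and both lay above control. In sorted bulk samples, fewer cells of a type and less RNA per cell cannot be told apart.

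Some airway secretory genes also fell from 3 d to 14 d, although of 19 epithelial markers tested 3 were higher, 1 lower and 15 not called at 3 d against control. Clca1, a secreted goblet cell protein, was 0.0664 to 0.548 CPM in controls, 39.6, 5.12 and 33.4 CPM at 3 d and 0.864, 3.40 and 3.55 CPM at 14 d. Bpifb1, a secreted airway defence protein, was 0.685 to 4.12 CPM in controls, 42.6, 10.1 and 14.9 CPM at 3 d and 2.02, 1.76 and 0.338 CPM at 14 d. The polymeric immunoglobulin receptor gene Pigr was 0.398 to 2.36 CPM in controls, 21.0, 8.61 and 7.82 CPM at 3 d and 4.03, 2.39 and 0.676 CPM at 14 d. Every 3 d library exceeded every control and 14 d library for these 3 genes; the early call of Bpifb1 held in 2 and that of Pigr in 4 of the 10 fits with 1 library left out, where the adjusted p otherwise lay between 0.0585 and 0.189. Scgb3a1, a club cell secretoglobin, was 119.7, 64.9 and 20 CPM at 3 d and 1.01, 2.65 and 2.20 CPM at 14 d. It fell by 5.11 ± 1.06 on the log2 scale at 14 d (adjusted p = 0.00407), while its value against control at 3 d, 4.41 ± 0.84, missed the threshold (adjusted p = 0.0562). Scgb1a1, the main club cell secretoglobin, was 15.1 to 70.6 CPM in controls, 653, 320 and 380 CPM at 3 d and 30.5, 56.0 and 110 CPM at 14 d. The early difference did not pass (adjusted p = 0.0739) and the fall to 14 d did (adjusted p = 0.0141). The summed level of the 19 epithelial markers tested was 918 to 1354 CPM at 3 d, against 449 to 634 CPM in controls and 455 to 552 CPM at 14 d, with 6 called higher and 7 lower at 14 d against 3 d. Their part in the early changes was not tested.

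Sftpc (chr14:70520949-70524081), the mutated gene itself, was detected at low level in these macrophage libraries and behaved otherwise. It was 38.5, 36.8, 39.3 and 36.4 CPM in controls, 12.4, 7.6 and 14.9 CPM at 3 d and 16.4, 19.8 and 27.9 CPM at 14 d. The controls lay within a narrow band, all injury libraries were below it, and every 14 d library was above every 3 d library. On the log2 scale Sftpc fell by 1.70 ± 0.22 from control to 3 d (adjusted p = 0.00125) and was 0.88 ± 0.23 higher at 14 d than at 3 d (adjusted p = 0.00487). Without 3 d replicate 2 the latter was 0.42 (adjusted p = 0.0883). These reads do not measure the mutant protein in the epithelium, and the files do not separate the alleles.

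Other genes that reverted included a cytokine and a chemokine. Il6, an inflammatory cytokine, was 3.90, 10.9, 2.29 and 3.39 CPM in controls, 41.8, 29.3 and 44.9 CPM at 3 d and 3.02, 6.68 and 4.4 CPM at 14 d. All 3 d libraries lay far above the others, and at 14 d Il6 was back in the control range (log2 fold change -3.03 ± 0.52 against 3 d, adjusted p = 0.000756; -0.10 ± 0.50 against control, adjusted p = 0.873). Its early call was lost without 3 d replicate 1 (adjusted p = 0.0593) or 3 d replicate 3 (adjusted p = 0.0714). The regulator of G-protein signalling Rgs1 was 64.2 to 94.3 CPM in controls, 394, 169 and 506 CPM at 3 d and 74.3, 108 and 60.4 CPM at 14 d. Ccl4, a chemokine for monocytes and T cells, was 4.85 to 12.2 CPM in controls, 22.1, 19.4 and 28.4 CPM at 3 d and 8.07, 6.68 and 1.86 CPM at 14 d. Aldh1a2, which makes retinoic acid, was 2.05 to 5.47 CPM in controls, 16.6, 9.62 and 20.5 CPM at 3 d and 5.04, 5.42 and 5.41 CPM at 14 d. Cd7 was 0.730 to 2.88 CPM in controls, 6.75 to 12.3 CPM at 3 d and 1.01 to 3.31 CPM at 14 d, and Spib, a transcription factor, was 7.10 to 11 CPM, 13.7 to 38.2 CPM and 4.90 to 12.1 CPM. Rgs1, Ccl4, Aldh1a2, Cd7 and Spib were picked after their values were seen. With TMM factors, only Tcim was called past the control level. Tcim went from 2.36 to 6.16 CPM in controls over 22.9, 7.14 and 14.6 CPM at 3 d to 1.15, 1.13 and 1.01 CPM at 14 d. The early call of Tcim was lost in 4 of 10 fits with 1 library left out (adjusted p 0.0571 to 0.173). Among genes lower at 3 d, 4 reverted: besides Sftpc they were Egfem1, Kif23 and Vsir, of which Kif23 did not keep the class with all 5 scalings. Egfem1 was not called at 14 d against control with TMM factors. With each of the other scalings it was called higher there, and so went past control. Its log2 fold change was 0.97 to 1.35 over the 9 settings that changed this call. Vsir, an inhibitory checkpoint receptor, was 213 to 340 CPM in controls, 128, 189 and 94.2 CPM at 3 d and 236, 253 and 177 CPM at 14 d, with an overlap of the 2 times. With 1 library left out, its early call was kept in 3 of 10 fits (adjusted p 0.0521 to 0.167 where lost) and the later one in 6.

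**Figure D4:**
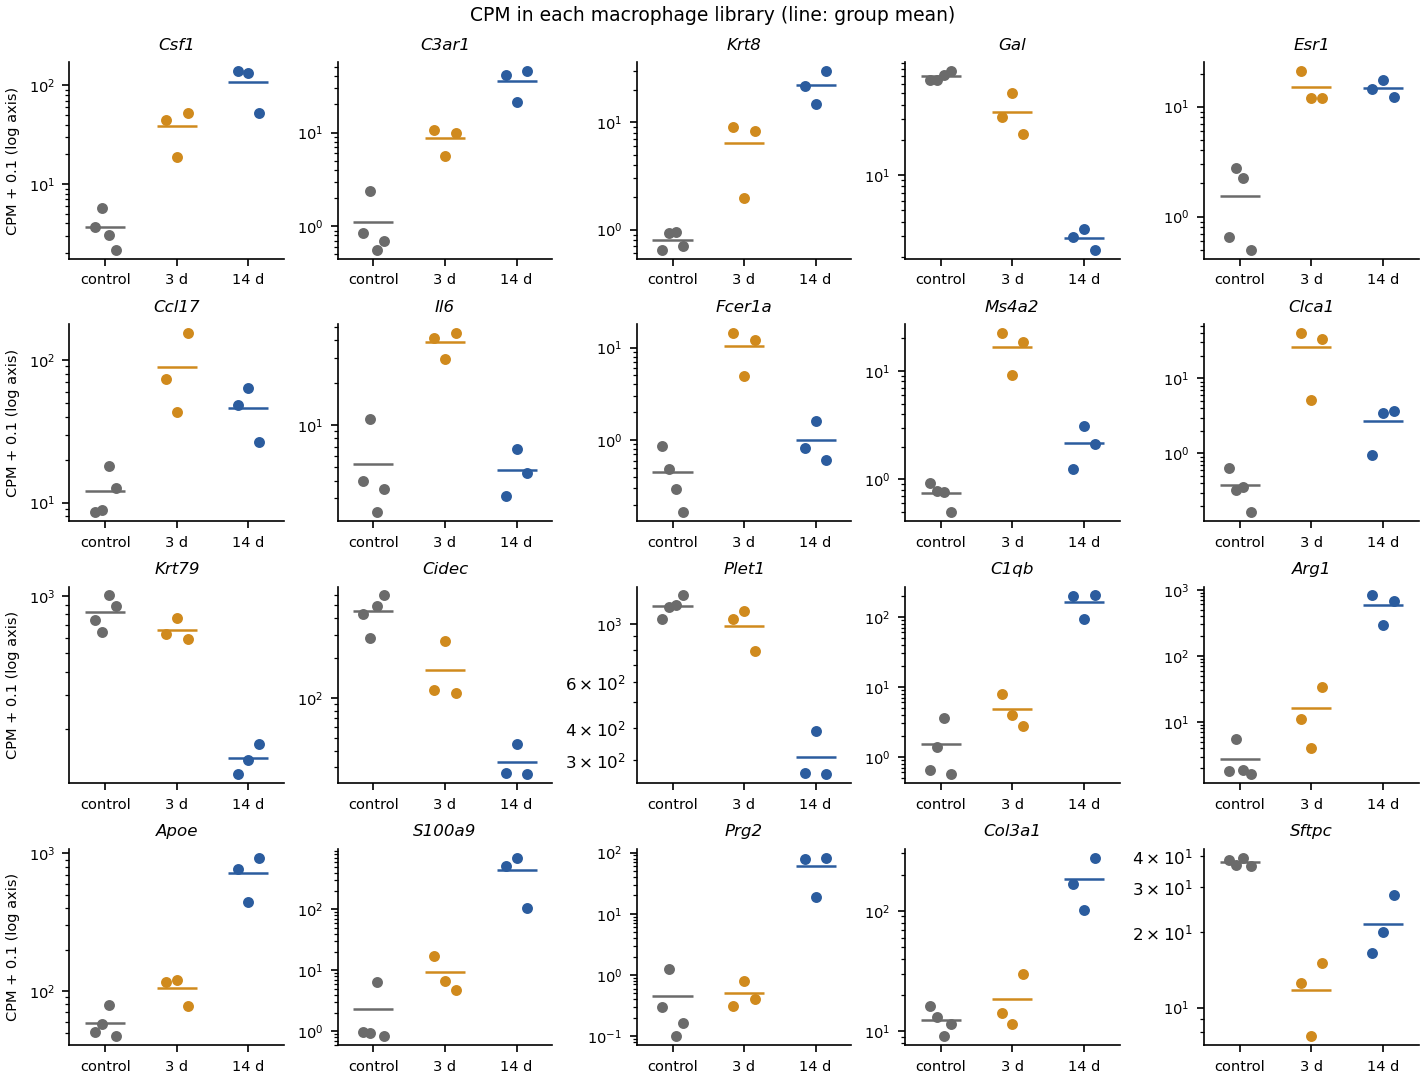
CPM plus 0.1 (log axis) in each library for 20 named genes, with a line at each group mean. Csf1, C3ar1, Krt8 and Gal moved on from 3 d to 14 d, Esr1 and Ccl17 were not called between the 2 times, Il6, Fcer1a, Ms4a2 and Clca1 came back towards control, and C1qb, Arg1, Apoe, S100a9, Prg2 and Col3a1 were called higher at 14 d against 3 d and were not called at 3 d against control.

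Alveolar macrophage identity genes were lower at 14 d. Of the 34 tested, 27 were called lower and 0 higher between 14 d and 3 d, 18 of them with all 5 scalings, and the median log2 fold change was 0.89 below that of the genes described. With TMM factors, 20% of all genes tested and 3351 of the 9083 genes described were called lower. Of the genes described, 798 were lower with all 5 scalings. At 3 d against control 1 of the identity genes was higher and 0 lower. Krt79, a keratin that marks mouse alveolar macrophages, was 748, 647, 1008 and 882 CPM in controls, 632, 767 and 596 CPM at 3 d and 115, 136 and 166 CPM at 14 d. The 14 d libraries lay far below both other groups, which overlapped (log2 fold change -2.26 ± 0.19 against 3 d, adjusted p = 4.76e-06). Plet1, another surface marker of these cells, was 1052, 1131 and 787 CPM at 3 d and 267, 388 and 264 CPM at 14 d. Atp6v0d2, a proton pump subunit, was 1426, 1119 and 1448 CPM at 3 d and 374, 501 and 349 CPM at 14 d. Mrc1, the mannose receptor, was 1359, 1646 and 1763 CPM at 3 d and 511, 637 and 401 CPM at 14 d, and Itgax, which encodes CD11c, was 1309, 1201 and 1137 CPM at 3 d and 496, 562 and 598 CPM at 14 d. These falls held with all 5 scalings. The lower calls of Siglecf and Pparg, with 124 to 322 and 159 to 198 CPM at 3 d and 90.1 to 127 and 94.4 to 116 CPM at 14 d, did not. Marco and Chil3, at 308 to 732 and 20320 to 25611 CPM at 14 d, were not called (adjusted p = 0.626 and 0.156), and the eosinophil-associated ribonuclease genes Ear1 and Ear2 were 52.2, 494 and 70.0 and 456, 2129 and 773 CPM at 3 d, with 3 d replicate 2 alone at the control level. At 14 d they were 50.1 to 56.1 and 473 to 576 CPM. The summed level of the list was 28418 to 36902 CPM at 14 d, 42440 to 69692 CPM at 3 d and 44220 to 48079 CPM in controls.

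Lipid handling, the main task of these cells, was lower in part. Of 27 genes of lipid uptake, storage and oxidation, 16 were lower and 4 higher at 14 d against 3 d, 5 of the lower ones with all 5 scalings. Over all genes tested, 20% were called lower and 36.3% higher. Cidec, a lipid droplet protein, was 284 to 594 CPM in controls, 114, 267 and 108 CPM at 3 d and 27.2, 44.7 and 26.5 CPM at 14 d. Abcg1, which exports cholesterol, was 1456 to 1984 CPM in controls, 960, 1521 and 677 CPM at 3 d and 286, 396 and 241 CPM at 14 d. Both showed their lowest values at 14 d without overlap (adjusted p = 0.000938 and 0.000136 against 3 d). Cd36, a fatty acid and oxidised lipoprotein receptor, was 342, 197 and 325 CPM at 3 d and 56.5, 43.2 and 91.3 CPM at 14 d. Sterol synthesis genes gave 7 lower calls of 24, of which 0 held with all 5 scalings, and their median lay 0.04 below that of the genes described. In fatty acid synthesis, Acaca was higher (36.9 to 48.5 CPM at 3 d, 85.2 to 133 CPM at 14 d) and the elongase Elovl5 lower (93.4 to 129 CPM, then 37.4 to 55.2 CPM).

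Among 25 genes of monocyte-derived and interstitial macrophages, 11 were higher at 14 d with all 5 scalings, 3 were lower and 11 were not called, beside 36.3% of all genes tested called higher. Their median lay 1.22 above that of the genes described. The complement C1q genes showed the pattern most plainly: C1qb was 0.465 to 3.47 CPM in controls, 7.67, 3.88 and 2.61 CPM at 3 d and 199, 94.3 and 202 CPM at 14 d. C1qa was 6.52, 2.79 and 2.61 CPM at 3 d and 154, 61.0 and 157 CPM at 14 d, and C1qc 3.37, 2.87 and 1.88 CPM and then 99.1, 48.1 and 104 CPM. In each C1q gene 14 d replicate 2 was the lowest of its group and still above every 3 d library. Apoe, the lipid carrier apolipoprotein E, was 46.9 to 79.6 CPM in controls, 117, 121 and 78.4 CPM at 3 d and 772, 443 and 933 CPM at 14 d (log2 fold change 2.76 ± 0.28 against 3 d, adjusted p = 1.96e-05). Itgam, which encodes CD11b, against which the cells were gated, was 0.730 to 2.66 CPM in controls, 18.3, 3.65 and 12.4 CPM at 3 d and 102, 54.9 and 71.5 CPM at 14 d. Maf, a macrophage transcription factor, was 2.87, 4.81 and 2.19 CPM at 3 d and 33.8, 10.6 and 14.0 CPM at 14 d. Ccr2, the receptor that draws monocytes into tissue, was 12.5, 32.4 and 19.3 CPM at 3 d and 88.0, 37.7 and 35.8 CPM at 14 d, a call kept in 7 of 10 fits with 1 library left out. Ly6c2, a classical monocyte marker, stayed at 1.18 to 6.19 CPM and was not called (adjusted p = 0.792). Spp1, osteopontin, reached 3325, 3300 and 2710 CPM at 14 d but overlapped with 3 d (2373, 799 and 3206 CPM) and was not called (adjusted p = 0.520).

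Arg1, which degrades arginine and is a classic gene of alternative activation, was among the largest increases. It was 1.53 to 5.47 CPM in controls, 11, 3.88 and 33.9 CPM at 3 d and 821, 297 and 676 CPM at 14 d (log2 fold change 5.23 ± 0.89 against 3 d, adjusted p = 0.00184). Retnla, a resistin-like gene induced by IL-4, was 0.197 to 0.608 CPM in controls, 33.8, 2.02 and 46.6 CPM at 3 d and 242, 40.2 and 285 CPM at 14 d, where the groups overlapped and the call (adjusted p = 0.0478) was kept in 1 of the 10 fits with 1 library left out. Between 14 d and 3 d, 36.3% of all genes tested were called higher and 20% lower, and 3351 of the 9083 genes described were lower. Of the 21 alternative activation genes tested 3 were higher, Arg1 and Retnla among them, and 8 lower. The lower ones include Mrc1, above, and Egr2, a transcription factor of this state, which was 104, 154 and 97.4 CPM at 3 d and 61.5, 55.8 and 44.6 CPM at 14 d. Alox15, a lipoxygenase of eosinophils and resident macrophages, was 0 to 1.11 CPM in controls, 7.88, 3.57 and 6.15 CPM at 3 d and 87.6, 27.9 and 135 CPM at 14 d. The chemokine genes Ccl8 and Ccl24, ligands for monocytes and eosinophils, were 0 to 0.521 and 0.155 to 3.55 CPM at 3 d and 4.54 to 21.6 and 4.54 to 64.8 CPM at 14 d.

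Granulocyte genes rose with them. Of 12 neutrophil genes tested, 8 were higher and 1 lower at 14 d against 3 d, and of 7 eosinophil genes 6 were higher and 0 lower. Over all genes tested, 36.3% were called higher and 20% lower. S100a9, an alarmin abundant in neutrophils, was 0.730 to 6.29 CPM in controls, 16.8, 6.52 and 4.69 CPM at 3 d and 522, 706 and 104 CPM at 14 d. Its partner S100a8 was 34.1, 10.5 and 22.3 CPM at 3 d and 514, 663 and 105 CPM at 14 d, so both genes were lowest in 14 d replicate 3. Mmp9, a gelatinase of neutrophil granules, was 4.08, 1.55 and 2.5 CPM and then 112, 80.5 and 32.5 CPM. The collagenase gene Mmp8, also of neutrophil granules, moved the other way, from 114, 136 and 100.4 CPM at 3 d to 21.8, 21.9 and 15.7 CPM at 14 d. Prg2, eosinophil major basic protein, was 0 to 1.14 CPM in controls, 0.215, 0.698 and 0.313 CPM at 3 d and 77.3, 18.5 and 82.8 CPM at 14 d. The eotaxin receptor gene Ccr3 was 0 to 1.25 CPM at 3 d and 16.1, 4.91 and 18.1 CPM at 14 d. In both eosinophil genes 14 d replicate 2 was lowest, as in C1qb and Arg1, and S100a9 was highest there. Cebpe, a transcription factor of granulocyte maturation, was 0.788, 0.854 and 0.209 CPM at 3 d and 26.8, 10.6 and 29.9 CPM at 14 d (adjusted p = 1.34e-05). The summed neutrophil markers were 159 to 239 CPM at 3 d and 469 to 1805 CPM at 14 d, and the eosinophil markers 206 to 350 and 474 to 650 CPM. Their part in the other increases at 14 d was not tested.

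Matrix genes, best known as products of fibroblasts, were higher in the 14 d macrophage libraries. Of 14 fibroblast and smooth muscle genes, 11 were higher and 0 lower with all 5 scalings. With TMM factors, 36.3% of all genes tested were called higher and 20% lower. Col3a1, a fibrillar collagen, was 8.98 to 16.0 CPM in controls, 14.0, 11.4 and 29.9 CPM at 3 d and 167, 102 and 277 CPM at 14 d. Sparc, a collagen-binding matrix protein, was 12.4, 13.7 and 20 CPM at 3 d and 148, 101 and 235 CPM at 14 d (log2 fold change 3.39 ± 0.29, adjusted p = 8.53e-06). Col1a1 was 1.58, 1.16 and 0.209 CPM at 3 d and 16.3, 23.9 and 32.0 CPM at 14 d, and Pdgfra, a receptor that marks fibroblasts, was 0.717, 1.71 and 1.04 CPM and then 9.36, 7.31 and 6.42 CPM. The summed level of the list was 46.0 to 64.5 CPM at 3 d and 292 to 625 CPM at 14 d. Thbs1 and Vegfa, secreted by macrophages in fibrosis, were 19.3, 22.8 and 37.5 and 3.08, 2.48 and 4.90 CPM at 3 d and 282, 176 and 428 and 21.9, 18.9 and 41.6 CPM at 14 d. Of the 35 fibrosis-associated macrophage genes tested, however, 8 were higher and 10 lower, beside the 36.3% and 20% of all genes tested. The median of these 35 genes lay 0.54 above that of the genes described. Gpnmb and Lgals3, which mark scar-associated macrophages, were lower: Gpnmb was 1153, 342 and 649 CPM at 3 d and 121, 173 and 191 CPM at 14 d, and Lgals3 3427, 1520 and 3297 CPM and then 935, 1010 and 952 CPM.

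B cell genes were lower at 14 d than at 3 d. All 10 B cell genes tested were called lower at 14 d against 3 d, 4 with all 5 scalings, although none had been called at 3 d against control, where 0 were higher. Against control their median log2 fold change was 1.53 at 3 d and 0.06 at 14 d, with 2 called lower and 0 higher at 14 d. Their summed level was 295 to 646 CPM in controls, 667 to 1378 CPM at 3 d and 270 to 437 CPM at 14 d. Jchain, which joins immunoglobulin chains in plasma cells, varied widely in controls (3.25 to 212 CPM) and was 142, 127 and 84.5 CPM at 3 d and 1.15, 2.77 and 2.87 CPM at 14 d. Jchain was the largest decrease among the genes described (log2 fold change -5.70 ± 1.52, adjusted p = 0.0135). Cd2, an adhesion receptor of T cells that these macrophage libraries also held at high level, was 365 to 397 CPM in controls, 407, 326 and 411 CPM at 3 d and 84.8, 109 and 80.3 CPM at 14 d (adjusted p = 1.92e-06). The T cell receptor component Cd3e, by contrast, was 1.23 to 6.23 CPM in controls, 1.36 to 5.04 CPM at 3 d and 6.05 to 8.79 CPM at 14 d, and was not called between 14 d and 3 d (adjusted p = 0.0613). Of 17 T and NK cell genes 5 were lower, 3 of them with all 5 scalings, 0 higher and 12 not called, beside 20% of all genes tested called lower. Their summed level was 417 to 503 CPM at 3 d and 117 to 161 CPM at 14 d, most of which was Cd2.

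Lower calls outnumbered higher ones among interferon gamma and MHC class I genes at 14 d against 3 d. With TMM factors the same held over all genes described (3351 lower, 967 higher), and 20% of all genes tested were called lower. With all 5 scalings, 798 of the 9083 genes described were lower and 967 higher. Of 19 genes of MHC class I presentation 14 were lower and 0 higher, 5 of them with all 5 scalings, and of 27 interferon gamma response genes 13 were lower, 5 of them with all 5 scalings, 2 higher and 12 not called. B2m, the light chain of MHC class I, was 1405 to 1793 CPM in controls, 1418, 1552 and 1555 CPM at 3 d and 771, 736 and 613 CPM at 14 d. Cd274, which encodes PD-L1, was 93.7, 184 and 93.6 CPM at 3 d and 48.3, 46.6 and 26.5 CPM at 14 d. The guanylate-binding proteins Gbp2 and Gbp7, effectors of cell-intrinsic defence, were 21.9, 28.9 and 22.1 and 30.0, 42.7 and 31.4 CPM at 3 d and 9.65, 11 and 6.93 and 17.1, 18.5 and 11.3 CPM at 14 d. No 14 d library of these 4 genes reached a 3 d library, and each was lower with all 5 scalings (adjusted p 8.98e-05 to 0.000482). Among 33 type I interferon genes 8 were lower and 4 higher, the latter including Oasl2 (3.44 to 6.05 CPM, then 11 to 23.2 CPM). Because interferon genes are known to share a promoter element bound by interferon-regulated factors, the promoters of these 4 genes are shown, taken from RefSeq on build GRCm38.p6 from 250 bases before to 50 bases after the transcription start, 5′ to 3′ on the strand of the gene, with the matches to GAAANNGAA on either strand in capitals.
B2m (chr2:122147437-122147736, + strand): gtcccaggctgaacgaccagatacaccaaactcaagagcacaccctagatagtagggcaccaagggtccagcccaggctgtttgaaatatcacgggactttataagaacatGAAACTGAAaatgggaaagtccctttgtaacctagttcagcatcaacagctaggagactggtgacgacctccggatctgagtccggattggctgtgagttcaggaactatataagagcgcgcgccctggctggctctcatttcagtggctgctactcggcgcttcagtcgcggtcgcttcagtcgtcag
Gbp2 (chr3:142620413-142620712, + strand): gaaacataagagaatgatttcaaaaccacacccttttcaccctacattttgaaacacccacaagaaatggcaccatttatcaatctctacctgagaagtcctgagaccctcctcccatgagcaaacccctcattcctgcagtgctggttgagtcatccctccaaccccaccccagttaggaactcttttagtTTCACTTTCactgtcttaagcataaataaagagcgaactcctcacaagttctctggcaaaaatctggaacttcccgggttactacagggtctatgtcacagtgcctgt
Gbp7 (chr3:142530086-142530385, + strand): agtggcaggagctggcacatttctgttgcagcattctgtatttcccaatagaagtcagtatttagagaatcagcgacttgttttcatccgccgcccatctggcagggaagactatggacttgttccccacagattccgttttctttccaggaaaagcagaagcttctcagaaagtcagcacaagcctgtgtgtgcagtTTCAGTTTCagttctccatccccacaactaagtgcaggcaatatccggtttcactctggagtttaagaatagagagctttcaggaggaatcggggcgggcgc
Cd274 (chr19:29367188-29367487, + strand): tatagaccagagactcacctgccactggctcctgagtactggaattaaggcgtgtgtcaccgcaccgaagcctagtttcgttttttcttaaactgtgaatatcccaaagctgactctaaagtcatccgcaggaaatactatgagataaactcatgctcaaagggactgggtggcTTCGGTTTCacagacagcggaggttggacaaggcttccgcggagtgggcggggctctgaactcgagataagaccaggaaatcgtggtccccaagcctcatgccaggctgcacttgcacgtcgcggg
The match began at position -139 from the transcription start in B2m, at -58 in Gbp2, at -52 in Gbp7 and at -76 in Cd274. It occurred in 9.76% of all 27025 promoters in the table and in 8.67% of those of the genes described. Genes called lower at 14 d held it in 9.70% and genes called higher in 8.76% of their promoters, against 14 of 18 promoters (77.8%) found for the interferon gamma list and 4 of 17 (23.5%) for the MHC class I list. These are matches of letters and were not tested as sites.

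Inflammatory genes were mixed. Of 32 cytokine and toll-like receptor genes 10 were lower and 4 higher, and of 20 chemokine genes 8 were lower and 2 higher. Lower calls made up 20% of all genes tested and 3351 of the 9083 genes described, and 36.3% of all genes tested were called higher. Il18, an inflammasome cytokine, was 213, 269 and 190 CPM at 3 d and 74.5, 115 and 40.1 CPM at 14 d, and Casp1, which activates it, was 86.3, 88.1 and 105 CPM and then 36.7, 51.7 and 22.1 CPM. The chemokine gene Ccl6, among the most abundant transcripts of these cells, was 9730, 5570 and 9788 CPM at 3 d and 1781, 1852 and 1816 CPM at 14 d (log2 fold change -2.20 ± 0.25, adjusted p = 2.55e-05). Ccl3 was 123, 114 and 131 CPM at 3 d and 39.6, 34.9 and 26.2 CPM at 14 d. All 4 were lower with all 5 scalings. Il1b (200 to 432 CPM at 3 d, 165 to 754 CPM at 14 d) and Tnf (27.1 to 187 and 12.5 to 81.7 CPM) overlapped between the times and were not called (adjusted p = 0.534 and 0.291).

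Cell cycle genes were mostly not called. Of 37 mitosis genes 15 were higher with all 5 scalings, 1 was lower with TMM factors and 21 were not called. Over all genes tested, 36.3% were called higher and 20% lower. Plk1, a mitotic kinase, was 5.37, 10.7 and 13.6 CPM at 3 d and 39.3, 40.1 and 54.3 CPM at 14 d, and Cdc20, which activates the anaphase-promoting complex, was 9.10, 16.4 and 16.8 CPM and then 41.3, 47.0 and 40.1 CPM. Mki67 and Top2a, the usual markers of cycling cells, were 29.7 to 78.4 and 23.5 to 64.3 CPM at 3 d and 19.9 to 58.5 and 42.3 to 73.0 CPM at 14 d and were not called. In DNA replication 10 of 35 genes were lower, with Pcna at 281, 208 and 367 CPM at 3 d and 109, 118 and 87.9 CPM at 14 d, and 3 were higher, such as Pole, a replicative polymerase, at 7.99 to 13.9 and then 30.1 to 53.1 CPM.

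Ribosomal protein genes were mostly lower with TMM factors. All 75 were tested, 64 were lower and 0 higher, 28 of them lower with all 5 scalings, and the median was 0.52 below that of the genes described. With TMM factors, 20% of all genes tested were called lower. Rps12 was 864, 769 and 1066 CPM at 3 d and 386, 381 and 313 CPM at 14 d. Of 74 nuclear genes of the mitochondrial respiratory chain 47 were lower, 9 with all 5 scalings, and of 39 lysosomal genes 27, of which 3 held. For the respiratory chain and the lysosome the count of lower genes ranged from 9 to 47 and from 3 to 27 over the 5 scalings.

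Some haem and stress genes were higher at 14 d than at 3 d and others lower. Hmox1, which breaks down haem, was 185, 165 and 149 CPM at 3 d and 394, 446 and 381 CPM at 14 d, and Slc11a1, a phagosomal metal transporter, was 12.8, 2.41 and 7.19 CPM and then 51.1, 40.5 and 54.8 CPM. Of 20 iron and haem genes 7 were higher with all 5 scalings and 3 lower with TMM factors, beside 36.3% of all genes tested called higher and 20% lower. Hspb1, a small heat shock protein, was 4.87, 3.72 and 9.59 CPM at 3 d and 46.5, 27.3 and 72.5 CPM at 14 d, whereas 9 of the 19 heat shock genes were lower. Slc7a11, the cystine transporter, was 21.4, 21.7 and 17.6 CPM and then 51.3, 51.9 and 69.5 CPM, while Prdx1 and Txn1, antioxidant enzymes, were lower with all 5 scalings at 979 to 1508 and 584 to 860 CPM and then 487 to 589 and 231 to 352 CPM. In the unfolded protein response 10 of 21 genes were lower and 1 higher, and in the integrated stress response 2 of 22 were lower and 3 higher. The NRF2 list of 25 genes had 7 lower and 4 higher.

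The other lists are given by their counts, beside 36.3% of all genes tested called higher and 20% lower. Called higher and lower at 14 d against 3 d were 6 and 2 of 15 complement genes, 7 and 8 of 21 scavenger and efferocytosis receptors, and 1 and 7 of 19 Fc receptor and C-type lectin genes. Cholesterol efflux genes gave 1 and 5 of 13, MHC class II genes 0 and 6 of 13, and immediate early genes 1 and 10 of 24. Glycolysis genes gave 2 and 4 of 20, and splicing factors 2 and 7 of 47. Of the markers of other cells, dendritic cell genes gave 1 and 2 of 10, endothelial genes 2 and 2 of 10, and erythrocyte and platelet genes 1 and 0 of 7. The complement median lay 1.22 above that of the genes described, and those of the other lists in this paragraph between -0.11 and 1.17.

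**Figure D5:**
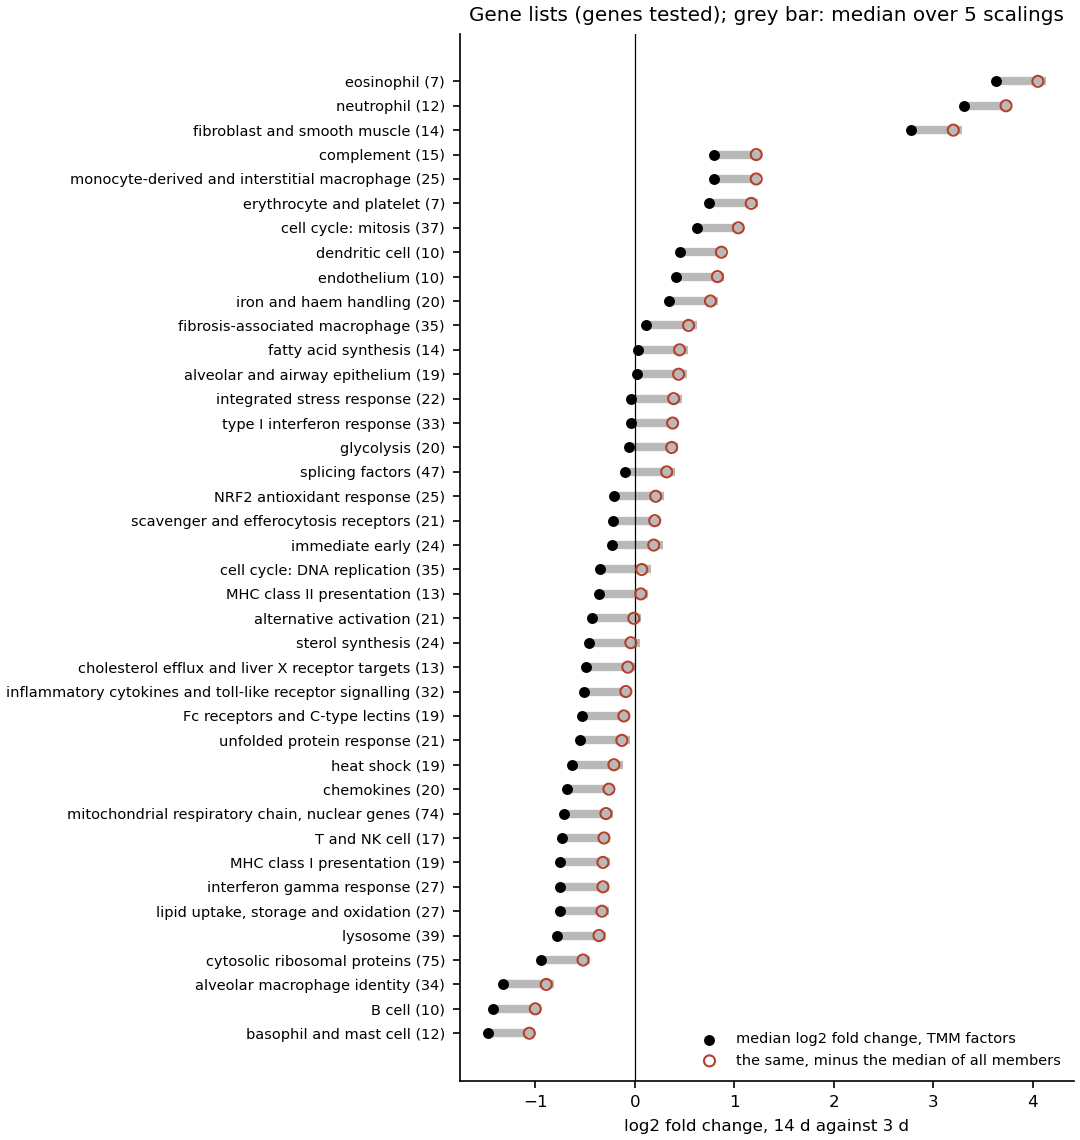
Median log2 fold change at 14 d against 3 d of each gene list (y axis, genes tested in brackets) with TMM factors (black), the range over 5 scalings (grey bar) and the median relative to the genes described (red circle). Granulocyte, fibroblast, complement and monocyte-derived macrophage lists lie to the right, and the basophil, B cell, alveolar macrophage and ribosomal lists to the left, with every scaling.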

How the data were processed

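RNA was measured in 10 libraries of sorted alveolar macrophages out of 22 samples in the series. The deposited values were raw counts of reads per gene, made by the authors; the submitters' processing notes list STAR 2.7.2c and 2.7.3a, featureCounts 1.6.3, DESeq2 1.26.0 and 1.28.1 and build GRCm38 (mm10), and whether counting used strand is not given in the sources used here, so reads of overlapping antisense genes cannot be told apart. Of 31134 identifiers, 31059 were matched to GENCODE annotation for symbol, biotype and chromosome.

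Counts were fitted with edgeR 4.0.16 (R 4.3.3; quasi-likelihood, robust, TMM factors, filterByExpr) over all 10 libraries, with 3 contrasts and Benjamini-Hochberg adjustment over 20944 genes. CPM values use TMM-scaled library sizes. A count of 3 was 0.215 to 0.313 CPM at 3 d and 0.378 to 0.507 CPM at 14 d, and 10 CPM was 95.9 to 140 and 59.1 to 79.4 counts. A gene grew, persisted or reverted by its calls in the 3 contrasts. Named genes were the 12 largest changes each way, 5 per class and direction and 4 per list, over 39 lists; others are named as picked after their values were seen, as members of a list or as defining markers. Members and lists were chosen with earlier results of these data known. The code was tested on simulated data. Same-numbered replicates did not deviate together (correlations -0.0532 to 0.228), and pairs of replicates differed beyond sampling noise. Library measures were compared by exact permutation tests. Alternatives were other scalings, filters, DESeq2 1.42.0, a fold threshold test, a replicate block, thinning and leaving out each library. Promoters came from RefSeq. Some genes are not reported here.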

Additional observations from a re-analysis of the deposited data

Results flagged for a closer look

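Among the 4 control libraries, 196 genes were examined for a library far from the others, by the gap to its nearest neighbour over the range (Dixon's test at the 95% level), and 15 genes had one. About 1 in 20 groups is expected to by chance. Control replicate 2 was the outlying library for 9 genes. It was high for Arg1 (5.47 CPM, the others 1.53 to 1.77), C3ar1 (2.28, the others 0.459 to 0.753), Msmo1 (166.5, the others 108 to 116), Prdx1 (1266, the others 1092 to 1114) and Txn1 (711, the others 534 to 556). It was low for Serpinb2 (0.076, the others 0.131 to 0.137), Acaa1b (115, the others 236 to 245), Cacnb3 (1.82, the others 3.19 to 3.29) and Acadm (77.8, the others 91.4 to 94.1). All 4 Serpinb2 values lay below the level of 3 counts, which was 0.197 to 0.228 CPM in the controls. Control replicate 3 was high for S100a9 (6.29 CPM, the others 0.730 to 0.890), Reg3g (6.23, the others 0.0685 to 0.730), C1qc (1.44, the others 0.398 to 0.456) and Mmp9 (2.75, the others 0.199 to 0.548). Control replicate 4 was high for Bpifa1 (11.5 CPM, the others 0.532 to 2.29) and Atp6v0d2 (1201, the others 1038 to 1060).

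Reads of the 4 Y-linked genes lie outside the genes described and were summed in each library. They came to 707, 966 and 433 counts in the 14 d libraries, against 0 to 3 in the control libraries.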

How the results depend on the processing

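Counts are given as higher and lower. With all libraries there were 7611 and 4195 calls at 14 d against 3 d, 220 and 47 at 3 d against control, 8258 and 4793 at 14 d against control, and 967 and 3351 among the genes described. With library size only, lower calls were 1318 and 1789 at 14 d against 3 d and control, and the genes described gave 1745 and 984; with upper quartile factors these were 1973, 2229 and, lower, 1520; with TMM factors from genes of 30 CPM or more, chosen after seeing the data, 1087, 1276, and 1970 and 799. Thinning to the smallest library, also chosen after seeing the data, gave 4330 and 2555, 4898 and 2809, 31 lower at 3 d, and 2072 lower among the genes described. A mean log2 CPM above 1 gave 2953 and 2079, 3424 and 2328, and 1658. glmTreat, a test against the fold threshold, gave 2019 and 2801 lower at 14 d, 64 and 1 at 3 d, 1581 lower among the genes described, and 13, 14 and 12 genes that grew, persisted and reverted. DESeq2 gave 571 and 192 at 3 d and 154, 162 and 110 in these classes. Without a filter on low counts, 80 were lower at 3 d. Fitting only the groups compared gave 22 lower at 3 d, 35 persisted and 23 reverted, and without robust estimation 55 reverted. Requiring 10 CPM at both times left 391 higher, 30 that grew and 16 that reverted; 30 CPM at either time left 5868 genes, 387 higher and 35, 26 and 15 in the classes; 10 CPM over all 10 libraries left 563 higher and 19 that reverted. Components from all genes explained 74.48 and 7.29% of variance, against 79.67 and 7.49%.

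Leaving out 1 library moved the calls at 3 d to between 73 and 802 higher and 4 and 674 lower, with 20 to 304 genes that grew, 19 to 339 that persisted and 15 to 308 that reverted. The lowest were without 3 d replicate 1 and the highest without 3 d replicate 2; without 3 d replicate 3 they were 107 and 4, and without control replicates 1, 3 and 4 85 and 7, 135 and 11, and 95 and 6. At 14 d against 3 d they were 7135 to 8628 and 3783 to 5782, and 748 to 1006 and 3037 to 4670 among the genes described; against control 7538 to 11204 and 4481 to 6334. The cause was not tested. No named gene changed direction. With the replicate number as a block, calls at 3 d were 113 and 20, and 35, 33 and 20 genes grew, persisted and reverted; the labels give no shared animal or day, and the numbers did not pair the libraries. Depth limits low genes at 14 d most.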
